A study of Mus musculus with 2 samples.

Results

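The calcium/calmodulin-dependent kinases are protein kinases that are switched on when calcium-loaded calmodulin binds them. Gene rows were taken by symbol from a list of the family, and 10 of the 30431 genes in the files matched: the upstream kinases Camkk1 and Camkk2, the kinases they activate (Camk1, Camk1d, Camk1g and Camk4), and the CaMKII subunits Camk2a, Camk2b, Camk2d and Camk2g. The genes were chosen by name together with raw UMI sums over the neuron and glia classes of these same libraries, so the levels and ratios given here describe the data and none was tested. The series compared single nuclei of the dorsal hippocampal field CA1, with its deep and superficial pyramidal sublayers, between chronic epilepsy and control. Both groups were male C57BL/6J mice carrying Calb1::Cre and Tdtomato, a genotype in which cells that have expressed Calb1 can carry the red reporter, so the controls share both alleles with the epileptic mice. In the epilepsy group, mice aged 6 to 7 weeks received hourly intraperitoneal kainate at 5 mg/kg until status epilepticus, a state of continuous seizures, which was stopped with diazepam at 4 mg/kg. Control mice received vehicle, which was saline or DMSO, and nuclei of both groups were isolated 12 weeks later. The labels name 2 mice per condition but 1 library per condition, and do not say whether a library holds tissue of 1 or of both mice.

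Each RNA molecule in this droplet assay carries a unique molecular identifier (UMI), and a level here is the UMIs of a gene per 1000000 UMIs (CPM) summed over the nuclei of a class in a library. Each condition is a single library and nuclei are not replicates, so ratios between conditions stand without replication. Brackets give 95% intervals for counting error, which leave out the error added by PCR and by the sampling of animals.

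In neurons, calcium entering through NMDA receptors and voltage-gated channels loads calmodulin, which then opens the autoinhibited catalytic domain of each of these kinases. CaMKK phosphorylates CaMKI and CaMKIV in their activation loops, and CaMKIV acts largely in the nucleus on CREB and its coactivators. CaMKII needs no upstream kinase: its subunits assemble into a large holoenzyme that phosphorylates itself, and at CA1 synapses the alpha and beta subunits are known for their part in long-term potentiation.

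Depth differed between the libraries: 11858162 UMIs over 3661 control nuclei, at a median of 3447, and 7112131 UMIs over 3078 epilepsy nuclei, at a median of 2443. After removal of the highest doublet scores, 3551 and 2985 nuclei were left, and 16 barcodes occurred in both libraries. Without them the epilepsy over control log2 ratios of Camkk2 in deep nuclei (0.65) and of Camk2g in all pyramidal nuclei (-0.57) were close to those given below. Clusters made without the kinase genes gave 2838 control and 2341 epilepsy nuclei with CA1 pyramidal markers. All 10 pyramidal markers were detected in them, with Slc17a7 at 128 and 151 CPM. Among these, 709 and 540 nuclei were deep-like and 1009 and 808 superficial-like, and the other pyramidal nuclei (1120 and 993) fitted neither sublayer. Deep-like nuclei had the deep marker Ndst4 at 1067 and 961 CPM, against 116 and 72.7 CPM in superficial-like nuclei. Superficial-like nuclei had Calb1 at 50.1 and 43.6 CPM, against 9.05 and 16.5 CPM in deep-like nuclei. Ndst4 and Calb1 were themselves used to name the sublayers, so their levels are no separate check of the names. A further marker was also required. Among the further markers, Col11a1 stood at 549 and 515 CPM in deep-like and 21.4 and 46.0 CPM in superficial-like nuclei. Epha3 stood at 56.3 and 55.9 CPM in deep-like and 396 and 404 CPM in superficial-like nuclei. Sox5 and Enpp2, on the list of deep markers, went against the label: in the control library Sox5 stood at 34.6 CPM in deep-like and 74.5 CPM in superficial-like nuclei, and Enpp2 at 26.4 and 76.1 CPM. Interneuron-like nuclei numbered 197 and 143 (Gad2 at 509.6 and 460.0 CPM) and oligodendrocyte-like nuclei 178 and 262 (Mog at 1239 and 1127 CPM). Clusters with glial markers and pyramidal markers together (84 and 86 nuclei, among them the only cluster with microglial markers) were kept out of all classes, as was an unnamed cluster of 24 and 13 nuclei. Activity-dependent genes summed to 346 CPM in control and 190.4 CPM in epilepsy pyramidal nuclei, and the depth per nucleus also differed between the libraries. Values without the cluster led by activity genes, or with each nucleus thinned to 1000 UMIs, are given beside some of the main results only.

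RefSeq promoter windows on GRCm38.p6 were at hand for 7 of the 10 genes. The 250 bases before the start site are printed for the upstream kinases, because Camkk2 is the gene whose ratio differed most between the sublayers, and for Camk1d, the CaMKI gene with the most UMIs. Capitals mark the short core of the CREB-binding element, TGACG on either strand, which 17.7% of 32817 RefSeq windows of this length hold. Among the 7 genes, the windows of Camkk1 and Camk1 held it. None held the full element TGACGTCA (1.55% of all windows) or the AP-1 site TGANTCA (6.75%), both searched on both strands. The full element contains the short core, so these counts overlap. A match describes letters in the window and is not a measured site.

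Camkk1, chr11:73018738-73018987, plus strand: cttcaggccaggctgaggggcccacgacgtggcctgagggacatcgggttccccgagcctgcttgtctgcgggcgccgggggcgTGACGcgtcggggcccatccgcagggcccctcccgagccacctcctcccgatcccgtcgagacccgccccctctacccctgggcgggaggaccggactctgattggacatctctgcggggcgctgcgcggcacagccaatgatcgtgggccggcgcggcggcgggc

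Camkk2, chr5:122779411-122779660, minus strand: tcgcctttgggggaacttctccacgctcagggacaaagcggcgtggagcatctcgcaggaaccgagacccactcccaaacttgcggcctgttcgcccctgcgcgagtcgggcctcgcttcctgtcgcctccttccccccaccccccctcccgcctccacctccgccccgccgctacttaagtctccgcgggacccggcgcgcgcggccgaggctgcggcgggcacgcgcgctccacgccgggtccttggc

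Camk1d, chr2:5714763-5715012, minus strand: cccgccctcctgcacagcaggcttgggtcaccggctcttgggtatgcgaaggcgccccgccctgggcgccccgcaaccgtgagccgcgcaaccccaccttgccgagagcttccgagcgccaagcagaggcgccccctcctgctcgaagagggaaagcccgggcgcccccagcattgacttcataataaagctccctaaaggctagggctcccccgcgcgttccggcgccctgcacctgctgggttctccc

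Gene positions below are those of the GENCODE annotation on GRCm38. Both upstream kinases were higher in pyramidal nuclei than in interneurons, and Camkk2 also than in oligodendrocytes. Camkk1 (ENSMUSG00000020785, chr11:73019008-73042073, plus strand) encodes CaMKK alpha. It stood at 40.8 CPM (interval 36.9 to 45.04, 397 UMIs) in control and 49.4 CPM (43.8 to 55.4, 288 UMIs) in epilepsy pyramidal nuclei. Interneurons gave 12.1 CPM from 8 UMIs and 21.2 CPM from 7 UMIs, and oligodendrocytes 18.4 and 18.3 CPM from 3 UMIs each. The interneuron level was below the pyramidal one in both libraries, and the oligodendrocyte interval (3.79 to 53.8 CPM in control) was too wide to place it. Camkk2 (ENSMUSG00000029471, chr5:122731170-122779409, minus strand) encodes CaMKK beta, which also activates AMP-activated kinase. Its level was 124 CPM (117 to 131) in control and 144 CPM (134 to 154) in epilepsy pyramidal nuclei, 69.8 and 69.6 CPM in interneurons, and 61.3 and 36.6 CPM in oligodendrocytes. Pyramidal nuclei were thus 1.77-fold (1.32 to 2.43) above interneurons in control and 2.06-fold (1.37 to 3.27) in epilepsy, while the intervals of interneurons and oligodendrocytes overlapped.

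The genes downstream of CaMKK split by class. Camk1 (ENSMUSG00000030272, chr6:113334124-113343984, minus strand), which encodes CaMKI alpha, was higher in interneurons and in oligodendrocytes than in pyramidal nuclei. It had 71 UMIs (108 CPM, 84.1 to 136) in control and 31 UMIs (93.8 CPM, 63.75 to 133) in epilepsy interneurons, but 18 and 12 UMIs (1.85 and 2.06 CPM) in the far larger pyramidal class. The interneuron level was 58.2-fold (34.3 to 104) the pyramidal level in control and in epilepsy, with 43 UMIs over both classes, 45.6-fold (22.8 to 97.5). A Camk1 UMI was found in 26.4% of control interneurons and 0.634% of control pyramidal nuclei at median depths of 3293 and 3574 UMIs, and in 7.57% and 0.255% after thinning to 1000 UMIs, which left out 12 and 90 nuclei. Oligodendrocytes gave 55.2 and 60.9 CPM from 9 and 10 UMIs, below the control interneurons in value with overlapping intervals (25.2 to 105 in control). Their level was 29.8-fold (11.8 to 69.9) the pyramidal level in control and 29.6-fold (11.5 to 74.8) in epilepsy. Ogg1, which overlaps Camk1 on the other strand, was itself at 7.61 CPM in control pyramidal nuclei and 9.10 CPM in control interneurons, so its counts did not follow those of Camk1. The sources used here do not say whether counting used strand. Within the interneurons, the cluster led by Cdh13 and Nxph1 gave Camk1 at 158 and 131 CPM, the Adarb2 cluster 60.3 and 50.3 CPM, and a cluster led by Fgf13 and Pde11a 66.0 and 76.4 CPM. The Cdh13 cluster was thus the highest in both libraries, and in control its interval (117 to 209) lay above that of the Adarb2 cluster (30.1 to 108).

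Camk1d (ENSMUSG00000039145, chr2:5293457-5714515, minus strand), which encodes CaMKI delta, was highest in pyramidal nuclei. Its level was 728 CPM (711 to 745) in control and 858 CPM (834 to 882) in epilepsy pyramidal nuclei, 337 and 381 CPM in interneurons, and 202 and 189 CPM in oligodendrocytes. All 3 classes were separated by their intervals in both libraries. Camk1g (ENSMUSG00000016179, chr1:193346346-193370298, minus strand), which encodes the membrane-anchored CaMKI gamma, was sparse: 120 and 74 UMIs in pyramidal nuclei (12.3 and 12.7 CPM) and 14 and 8 UMIs in interneurons (21.2 and 24.2 CPM), whose intervals overlapped. Oligodendrocytes held 0 Camk1g UMIs in 163035 and 164126 UMIs, which allows up to 18.4 and 18.3 CPM, so its absence there was not detectable at this depth. Levels in the smaller neuron classes, given at the end, differed more than those of Camk4 in CA1 pyramidal nuclei and interneurons. Camk4 (ENSMUSG00000038128, chromosome 18, plus strand) encodes CaMKIV. Its interneuron level was 1.29-fold (1.09 to 1.52) the CA1 pyramidal level in control and 1.26-fold (0.97 to 1.61) in epilepsy. It stood at 185 CPM (177 to 194) and 168 CPM (158 to 179) in pyramidal nuclei, 239.6 CPM (204 to 280.1) and 212 CPM (165 to 268) in interneurons, and 30.7 and 73.1 CPM in oligodendrocytes. The interneurons were not uniform: the Adarb2 cluster had Camk4 at 559 CPM (456 to 678) and 452 CPM (330.0 to 605), the Cdh13 cluster at 129 and 144 CPM, and the Fgf13 cluster at 96.0 and 38.2 CPM. The Adarb2 cluster lay above both others in each library with no overlap of intervals.

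**Figure D1:**
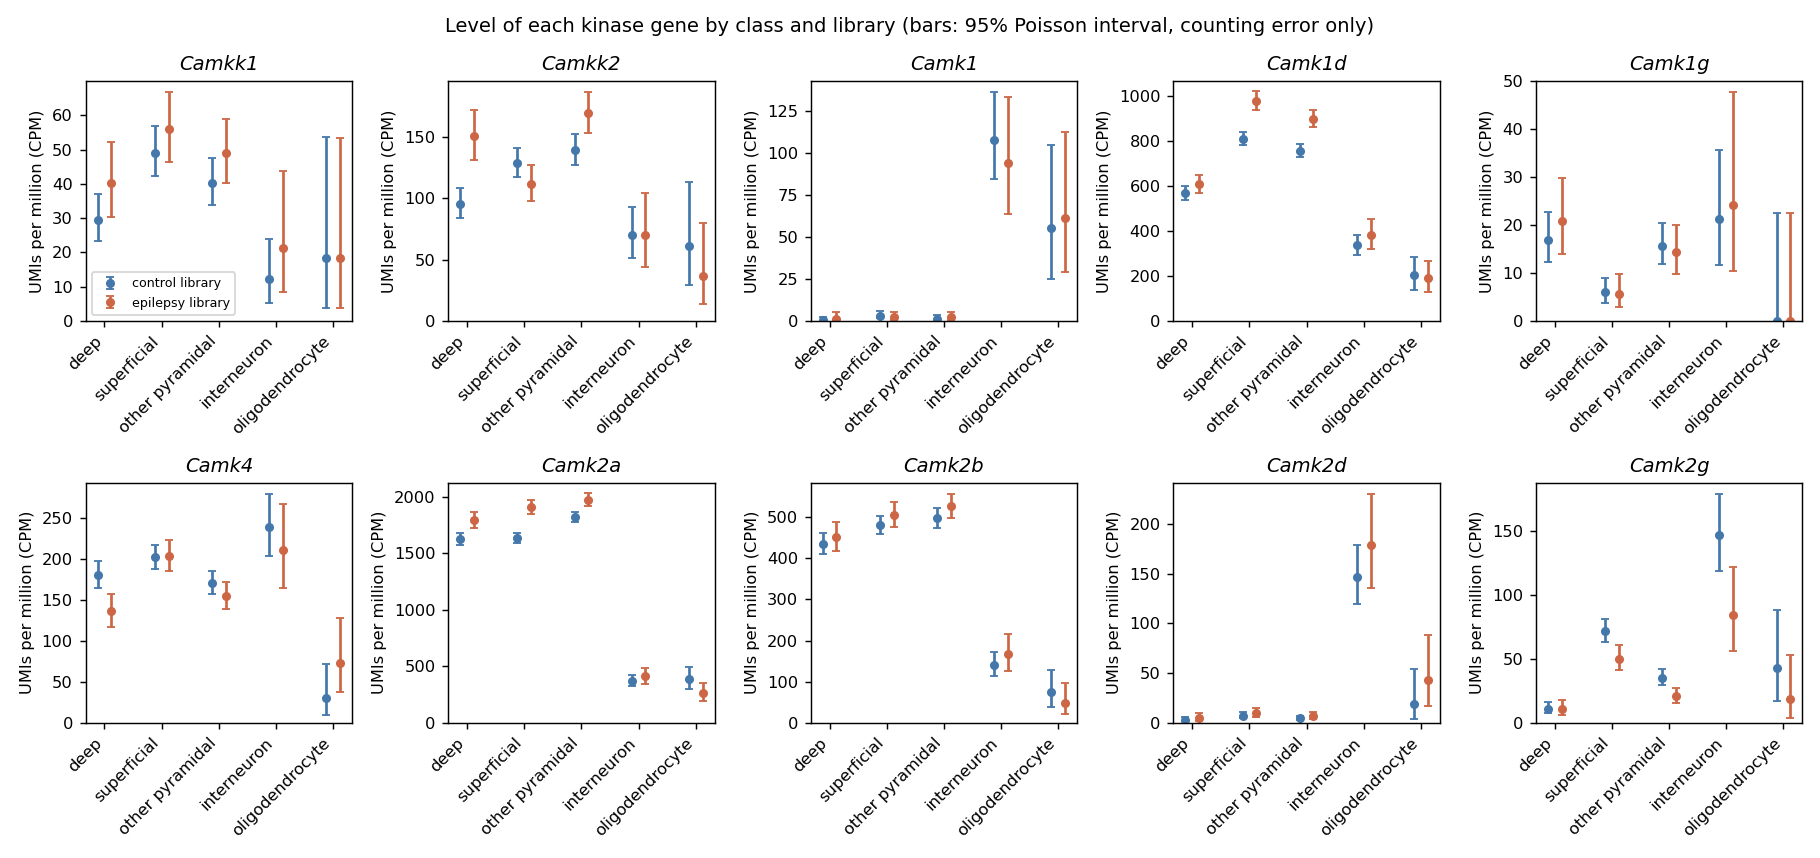
UMIs per 1000000 (vertical axis, linear, each panel with its own scale) of each kinase gene in 5 classes (horizontal axis), with the control library in blue and the epilepsy library in orange; points are sums over nuclei of 1 library and bars are 95% Poisson intervals. Camk1 and Camk2d are high in interneurons and near 0 in the pyramidal classes, Camk2a and Camk2b are higher in the pyramidal classes than in interneurons, and deep nuclei hold Camk2g at 11.0 and 10.7 CPM against 71.8 and 50.2 CPM in superficial nuclei.

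Between pyramidal nuclei and interneurons, Camk2a and Camk2b were higher in the former, and Camk2d and Camk2g in the latter. Camk2a (ENSMUSG00000024617, chromosome 18, plus strand), the alpha subunit, stood at 1699.7 CPM (1674 to 1726) in control and 1908 CPM in epilepsy pyramidal nuclei, against 373 and 412 CPM in interneurons. Camk2b (ENSMUSG00000057897, chr11:5969644-6066362, minus strand), the actin-binding beta subunit, stood at 476 and 501 CPM in pyramidal nuclei and 139.5 and 166 CPM in interneurons. The pyramidal level was 4.56-fold (4.02 to 5.19) the interneuron level for Camk2a and 3.41-fold (2.77 to 4.24) for Camk2b in control, and 4.63-fold and 3.01-fold in epilepsy. Camk2d (ENSMUSG00000053819, chr3:126596302-126846326, plus strand), the delta subunit, ran the other way with 5.04 and 7.20 CPM in pyramidal nuclei (49 and 42 UMIs) and 147 and 179 CPM in interneurons (97 and 59 UMIs). That is 29.2-fold (20.5 to 42.1) higher in interneurons in control and 24.8-fold (16.4 to 37.8) in epilepsy. Camk2g (ENSMUSG00000021820, chr14:20734875-20794088, minus strand), the gamma subunit, known for carrying calmodulin to the nucleus, stood at 42.8 and 29.1 CPM in pyramidal nuclei and 147 and 84.7 CPM in interneurons, 3.44-fold (2.73 to 4.30) and 2.91-fold (1.88 to 4.36) higher there. Camk2d and Camk2g were not particular to interneurons. In control astrocyte-like nuclei they stood at 3283% and 1031% of the pyramidal level, from 6 and 16 UMIs. Control dentate granule-like nuclei gave 857% and 334%, while Camk2g in control oligodendrocytes was at 100%.

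Of the 10 genes, all were measured for interneurons against pyramidal nuclei in control, which needed 50 UMIs over both classes. Past 1.5-fold, 4 were higher in interneurons (Camk1, Camk1g, Camk2d and Camk2g), where 24.9% of all genes were, and 5 were lower (Camkk1, Camkk2, Camk1d, Camk2a and Camk2b), where 20.2% were. In epilepsy 9 were measured, with 3 higher (24.2% of all genes) and 5 lower (22.7%), since Camk1 had 43 UMIs. In oligodendrocytes against pyramidal nuclei, 1 of 9 genes was higher in control (Camk2d, 3.65-fold with an interval of 0.73 to 11.3, from 3 UMIs), where 32.7% of all genes were, and 7 were lower, where 32.7% were. In epilepsy 0 of 8 were higher (30.4% of all genes) and 8 lower (35% of all genes). The minimum of 50 UMIs is met mostly through the far larger pyramidal class, so it favours genes that are high there. The members it left out in epilepsy were higher in oligodendrocytes. Camk1 was 29.6-fold (11.5 to 74.8) higher on 10 and 12 UMIs, and Camk2d 5.92-fold (2.25 to 13.3) on 7 and 42 UMIs. In control it left out Camk1, 29.8-fold (11.8 to 69.9) higher on 9 and 18 UMIs. Camk1g stands among the lower genes in both libraries on 0 UMIs, which gives no fold.

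The share of each subunit in the UMIs of the 4 CaMKII genes separated pyramidal nuclei from interneurons in both libraries for Camk2a, Camk2d and Camk2g. The shares of Camk2b lay closer together, and their intervals were apart only in control. Shares can be set side by side across classes, although not between genes, since UMIs were not scaled to length. Camk2a made up 76.5% of CaMKII UMIs in control and 78.0% in epilepsy pyramidal nuclei, and 46.2% (41.9 to 50.6) and 48.9% (42.9 to 55.0) in interneurons. Camk2b held 21.4% (20.85 to 21.94) and 20.5% (19.84 to 21.17) in pyramidal nuclei. In interneurons it held 17.3% (14.17 to 20.78) and 19.8% (15.3 to 25.0). Camk2d held 0.23% and 0.29% in pyramidal nuclei but 18.2% and 21.2% in interneurons. Camk2g held 1.92% (1.75 to 2.12) and 1.19% (1.02 to 1.38) in pyramidal nuclei, and 18.2% (15.0 to 21.8) and 10.1% (6.80 to 14.2) in interneurons. Oligodendrocytes had only 85 and 61 CaMKII UMIs. Their Camk2a share, 74.1% (63.5 to 83.0) and 70.5% (57.4 to 81.5), was not told apart from the pyramidal one. There Camk2d held 3.53% (0.73 to 9.97) and 11.5% (4.74 to 22.2), and Camk2g 8.24% (3.38 to 16.2) and 4.92% (1.03 to 13.7).

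**Figure D2:**
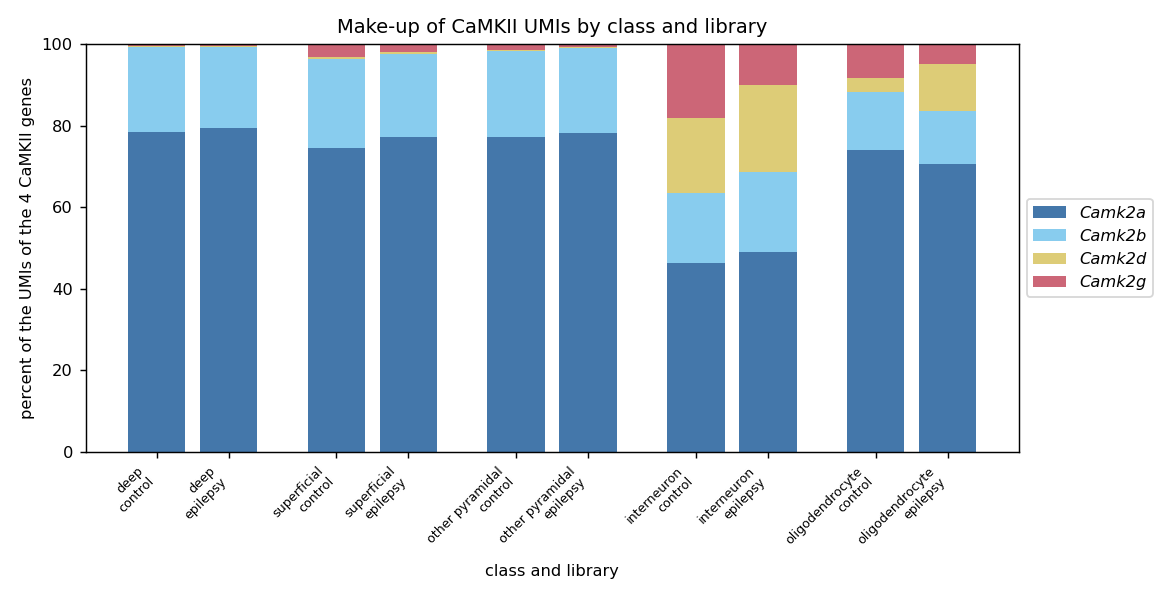
Stacked bars give the percent of the UMIs of the 4 CaMKII genes (vertical axis) that belong to each gene, by class and library (horizontal axis). Camk2d and Camk2g together take a larger part of the bar in interneurons than in any pyramidal class, and superficial nuclei hold a Camk2g part of 3.27% in control and 2.03% in epilepsy that deep nuclei hold at 0.53% and 0.48%.

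Free RNA in the droplets can add UMIs to glia and interneurons, and the level of pyramidal genes there gives a measure to set beside the kinases. A set of 8 pyramidal genes was chosen as genes that glia should lack, and whether interneurons lack them was not tested. The set reached 22.2% (18.6 to 26.4) of its pyramidal level in control interneurons and 21.7% in epilepsy interneurons. Single genes ran from 3.2% to 69.3% in control interneurons. Camk2a in interneurons stood at 21.95% (19.3 to 24.9) and 21.6% (18.1 to 25.5) of its pyramidal level, close to the pooled share, so it did not stand above it. Camk2b stood at 29.3% and 33.2%, Camk1d at 46.3% and 44.5%, and Camk4 at 129% and 126%, the last well above that share. In oligodendrocytes the pyramidal set reached 23.3% (16.2 to 32.6) and 24.2% (17.0 to 33.5). There Camk2a at 22.7% and 13.7%, Camk2b at 15.5% and 9.7%, and Camk1d at 27.8% and 22.02% lay at or below it or within its interval, while Camk1 at 2983% and 2962% lay above. Single genes of the set ran from 0% to 69.4% in epilepsy oligodendrocytes, and the part of free RNA in the interneuron and glial values was not tested.

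Among pyramidal nuclei, Camk2g was the kinase gene that separated the sublayers most. It had 265 UMIs (71.8 CPM, 63.4 to 81.0) in superficial and 28 UMIs (11.0 CPM, 7.32 to 15.9) in deep nuclei of the control library, and 107 UMIs (50.2 CPM, 41.2 to 60.7) and 15 UMIs (10.7 CPM, 6.01 to 17.7) in the epilepsy library. The superficial level was 6.52-fold (4.41 to 10.0) the deep level in control and 4.67-fold (2.71 to 8.64) in epilepsy, although the gene was not used to form the clusters. A Camk2g UMI was found in 21.7% of superficial and 3.81% of deep control nuclei at median depths of 3674 and 3684 UMIs, and in 6.57% and 0.997% after thinning. Both superficial clusters carried it, the Pcdh7 and Grik4 cluster at 71.1 and 42.9 CPM and the Tenm3 and Lingo2 cluster at 72.9 and 61.3 CPM. Both deep clusters were low, at 5.63 and 1.33 CPM (7 and 1 UMIs) in cluster 3, led by Maml3 and Col11a1, and 16.2 and 21.7 CPM in cluster 4, led by Col11a1 and Tenm3. Splitting all pyramidal nuclei at the median sublayer score in place of clusters gave smaller log2 ratios, 1.17 in control and 0.93 in epilepsy against 2.70 and 2.22.

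Camkk1 and Camk1d were also higher in superficial nuclei. Camkk1 stood at 49.05 CPM in superficial and 29.5 CPM in deep control nuclei, 1.66-fold (1.26 to 2.205), and at 55.8 and 40.1 CPM in the epilepsy library, 1.39-fold (1.01 to 1.95). Camk1d stood at 809 and 568 CPM in control, 1.43-fold (1.34 to 1.52), and at 978 and 607 CPM in epilepsy, 1.61-fold (1.49 to 1.75). Camk1g ran the other way, with 22 UMIs (5.96 CPM) in superficial and 43 UMIs (16.9 CPM) in deep control nuclei, a log2 ratio of -1.51 (-2.32 to -0.73), and with 12 and 29 UMIs in epilepsy (5.63 and 20.8 CPM). With the split at the median score, the control log2 ratios were -0.76 for Camk1g and 0.26 for Camkk1, both smaller than by cluster. Over 3 alternatives, the log2 ratio of Camk1d ran from 0.28 to 0.50 in control, against 0.51 by cluster. In epilepsy it ran from 0.32 to 0.71, against 0.69. Camk2a lay within 0.01 and 0.09 log2 units of equal in the 2 libraries, and Camk2b within 0.14 and 0.16. Past 1.5-fold, 2 of 8 measured genes were higher in superficial control nuclei (Camk2g and Camkk1), where 8.9% of all genes were, and 1 was lower (Camk1g), where 5.55% were. In the epilepsy library 2 of 7 were higher (Camk2g and Camk1d), where 13.9% of all genes were, and 0 lower, where 6.33% were. Camk4 lay just short of 1.5-fold there with a log2 ratio of 0.58 (0.33 to 0.84), after 0.16 in control.

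**Figure D3:**
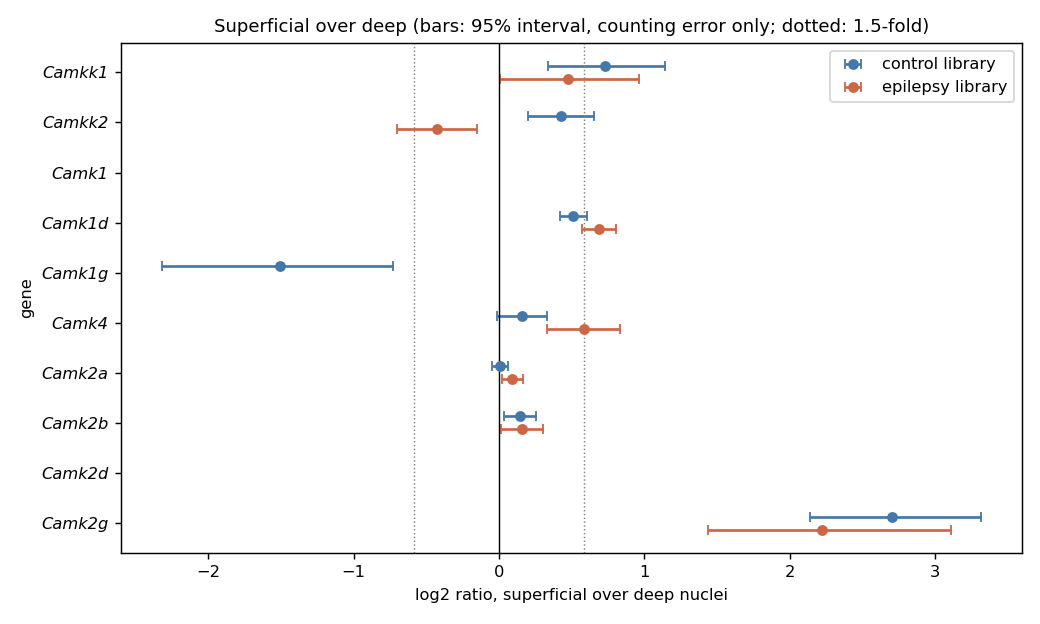
Log2 ratio of superficial over deep nuclei (horizontal axis) for each gene with 50 UMIs over both sublayers (vertical axis), control library in blue and epilepsy library in orange, with 95% intervals that cover counting error only and dotted lines at 1.5-fold. Camk2g lies farthest to the right at 2.70 and 2.22, Camk1g to the left at -1.51, and Camkk2 stands on opposite sides of 0 in the libraries at 0.43 and -0.43.

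Between the conditions, the family differed little in CA1 pyramidal nuclei as a whole. Of 9 measured genes 7 had a higher and 2 a lower level in the epilepsy library, and 0 passed 1.5-fold, where 8.81% of all 11086 measured genes were higher and 5.09% lower. The median log2 ratio was 0.17 for the 9 genes and 0.00 for all genes. Trimmed-mean (TMM) scaling lowered the pyramidal ratios and turned 2 of the 7 below 0, Camk1g to -0.05 and Camk2b to -0.01, while Camk2g then passed 1.5-fold lower at -0.64. Camk2a went from 1699.7 to 1908 CPM, a log2 ratio of 0.17 (0.13 to 0.20), and Camk1d from 728 to 858 CPM, 0.24 (0.19 to 0.29). Camkk1 went from 40.8 to 49.4 CPM, 0.27 (0.05 to 0.50), and Camkk2 from 124 to 144 CPM, 0.22 (0.09 to 0.34). Camk4 was lower, 185 against 168 CPM, -0.14 (-0.25 to -0.03), and Camk2g lowest in ratio, 42.8 against 29.1 CPM, -0.55 (-0.82 to -0.29). A ratio this low or lower was held by 5.80% of the measured genes. Camk1 was not measured in these nuclei, and the intervals of Camk1g and Camk2d included 0. Thinned to 1000 UMIs, the ratio of Camk1g was -0.50 (-1.35 to 0.31), against 0.04.

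Camkk2 differed between the sublayers. Its level in deep nuclei was 95.6 CPM (84.0 to 108, 243 UMIs) in control and 150.4 CPM (131 to 172, 210 UMIs) in epilepsy, and in superficial nuclei 128 CPM (117 to 141, 474 UMIs) and 112 CPM (98.0 to 127, 238 UMIs). The deep intervals did not overlap and the superficial ones did. The log2 ratio was 0.65 (0.38 to 0.93) in deep and -0.20 (-0.43 to 0.03) in superficial nuclei, and their difference, superficial minus deep, was -0.85 (-1.20 to -0.51). Of 6989 genes measured in both sublayers, 1.56% had a lower difference. Camkk2 was the 1 of 6 members whose difference passed 1.5-fold, on the lower side, where 4.86% of all genes did (8.17% on the higher side). The deep clusters gave 0.70 (0.31 to 1.09) and 0.62 (0.22 to 1.00), and the superficial clusters -0.27 (-0.56 to 0.02) and -0.09 (-0.47 to 0.28). Clusters outside the sublayers went both ways: 0.54 (0.25 to 0.83) in cluster 2, led by Ubash3b and Pcsk1, 1.06 (0.22 to 1.84) in cluster 7, led by activity genes (53 and 19 UMIs), and -0.44 (-0.86 to -0.03) in cluster 6, led by Cemip and Grm3. With each nucleus thinned to 1000 UMIs the deep ratio was 0.91, the superficial ratio -0.17 and the difference -1.08, and under TMM scaling the deep ratio was 0.60. In deep nuclei a Camkk2 UMI was found in 8.26% of control and 13.9% of epilepsy nuclei after thinning (27.4% and 31.5% before, at medians of 3684 and 2621 UMIs).

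Of the measured members, Camk4 and Camk2g had a lower level in epilepsy in all pyramidal nuclei. Camk4 stood at 181 CPM (165 to 198) in control and 136 CPM (117 to 157) in epilepsy deep nuclei, -0.41 (-0.66 to -0.16), and at 202 and 204 CPM in superficial nuclei, 0.01 (-0.16 to 0.18), which turned to -0.08 under TMM scaling. The difference, superficial minus deep, was 0.42 (0.13 to 0.72), and 85.1% of genes had a lower value. Thinned to 1000 UMIs, the deep ratio of Camk4 was -0.15 and the difference 0.13, smaller than without thinning, which also left out nuclei under 1000 UMIs. Camk2g was lower in superficial nuclei, 71.8 against 50.2 CPM, -0.52 (-0.85 to -0.19), and in the other pyramidal nuclei, 35.2 against 20.8 CPM, -0.76 (-1.27 to -0.27), while in deep nuclei it had 28 and 15 UMIs and no ratio was drawn. By cluster, its ratio was -0.73 (-1.20 to -0.28) in the Pcdh7 and Grik4 cluster and -0.25 (-0.76 to 0.24) in the Tenm3 and Lingo2 cluster. It was 81.9 and 43.4 CPM in the low-UMI cluster 5, and leaving that cluster out gave a ratio of -0.52 for all pyramidal nuclei. Without the cluster led by activity genes, which held 121 control and 27 epilepsy nuclei, it was -0.54.

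**Figure D4:**
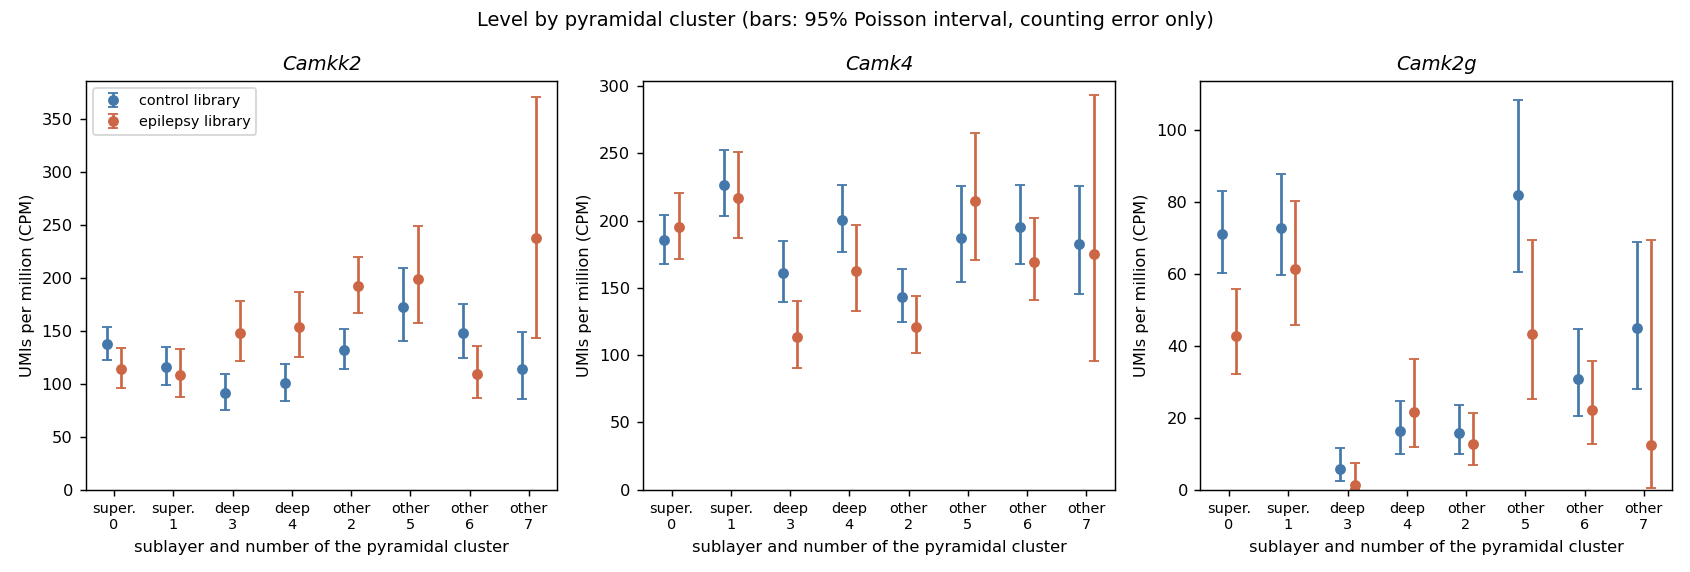
Level of Camkk2, Camk4 and Camk2g in UMIs per 1000000 (vertical axes) in 8 pyramidal clusters (horizontal axis, named by sublayer and number), control library in blue and epilepsy library in orange, with 95% Poisson intervals; cluster 8, with 62 and 15 nuclei, is not drawn. Camkk2 is higher in the epilepsy library in both deep clusters (90.9 against 148 and 100.2 against 153 CPM) and not in the superficial clusters, and Camk2g is low in clusters 2, 3 and 4 in both libraries.

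In deep nuclei 1 of 7 measured members passed 1.5-fold higher (Camkk2, 1.57-fold), where 5.16% of all genes did, and 0 lower, where 7.89% did. In superficial nuclei 0 of 7 passed in either direction, where 6.94% of all genes were higher and 5.69% lower. In the other pyramidal nuclei 0 of 8 passed higher (6.35% of all genes) and 1 passed lower (Camk2g, 1.69-fold; 6.36% of all genes). In interneurons 0 of 8 passed higher (5.5% of all genes) and 1 lower (Camk2g; 7.46% of all genes). In oligodendrocytes 0 of 2 passed in either direction, with 6.67% of all genes higher and 6.67% lower. Each of these counts rests on at most 1 gene. At a lower threshold, a log2 ratio of 0.32, all pyramidal nuclei gave 1 gene higher (Camk2d, where 18.1% of all genes were) and 1 lower (Camk2g, where 15.7% were). Deep nuclei then gave Camkk1 and Camkk2 higher (15.9% of all genes) and Camk4 lower (20.8%). Superficial nuclei gave 0 higher (18.3% of all genes) and Camk2g lower (16.7%), and oligodendrocytes 0 higher (19.6% of all genes) and Camk2a lower (21%).

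Among the classes with 50 Camk2g UMIs, interneurons gave the lowest ratio, 147 CPM (119 to 179, 97 UMIs) in control against 84.7 CPM (56.3 to 122, 28 UMIs) in epilepsy, -0.80 (-1.46 to -0.18). All 3 interneuron clusters had the lower value in epilepsy, 142 against 91.9 CPM in the Cdh13 cluster, 164 against 50.3 CPM in the Adarb2 cluster and 138 against 115 CPM in the Fgf13 cluster. The interval of the ratio excluded 0 in the Adarb2 cluster, -1.71 (-3.43 to -0.33), which rests on 30 and 5 UMIs. Thinned to 1000 UMIs, the class ratio was -1.13, on fewer than the 50 UMIs asked of a measured gene. The other measured interneuron ratios all had intervals that included 0: Camkk2 at -0.00, Camk1 at -0.20, Camk4 at -0.18, Camk2a at 0.14, Camk1d at 0.18, Camk2b at 0.25 and Camk2d at 0.28. In oligodendrocytes Camk2a stood at 386 and 262 CPM, -0.56 (-1.15 to 0.02), and Camk1d at 202 and 189 CPM, -0.10 (-0.86 to 0.65). With nuclei of at least 500 detected genes these became 0.15 and 1.46.

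**Figure D5:**
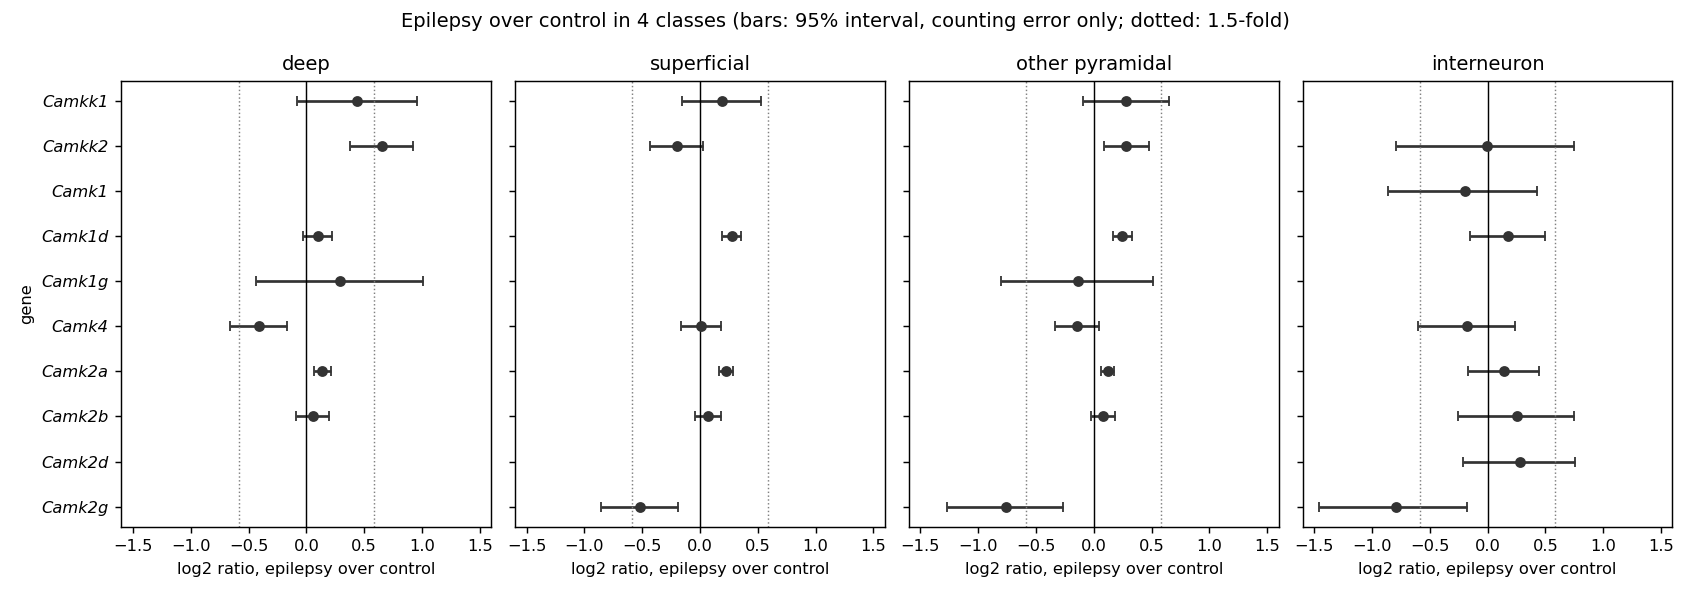
Log2 ratio of epilepsy over control (horizontal axis) of each measured gene (vertical axis) in deep, superficial and other pyramidal nuclei and in interneurons, with 95% intervals that cover counting error only and dotted lines at 1.5-fold; 1 library stands on each side of a ratio. Camkk2 lies at 0.65 in deep and -0.20 in superficial nuclei, and Camk2g at -0.52, -0.76 and -0.80 in the classes where it was measured.

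The wider pathway was described with 76 genes in 7 lists. Calm2 and Calm3 encode calmodulin, the calcium sensor that all these kinases share. Their log2 ratios in pyramidal nuclei were -0.03 for Calm2 (264 and 258.5 CPM, interval -0.12 to 0.06) and 0.00 for Calm3 (12.3 CPM in each, -0.44 to 0.43). Of the calmodulin-binding buffers, 3 of 6 were measured and 0 passed 1.5-fold, with a median of -0.05. Nrgn, neurogranin, which holds calmodulin at rest, stood at 202 CPM in control and 165 CPM in epilepsy, -0.29 (-0.41 to -0.18), and had ratios of -0.29 in deep and -0.34 in superficial nuclei. Of the calcineurin list, the phosphatase that opposes these kinases with its inhibitors, 6 of 7 were measured, 1 passed 1.5-fold higher and 1 lower, with a median of 0.13. Its catalytic subunit Ppp3ca went from 2997 to 3252 CPM (0.12, 0.09 to 0.14). The inhibitor Rcan1 went from 53.7 to 64.8 CPM (0.27, 0.08 to 0.47), and from 44.1 to 70.9 CPM in deep nuclei (0.69, 0.28 to 1.09). Rcan2 passed higher on 26 and 36 UMIs (1.21, 0.44 to 1.99). The gene that passed lower was Ppp3r1 on 75 and 28 UMIs (-0.68, -1.37 to -0.04), named after its value was seen.

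Among kinase phosphatases, 5 of 5 were measured and 0 passed, with a median of -0.00. Ppm1e, the nuclear phosphatase that removes phosphate from these kinases, stood at 2099 and 2222 CPM (0.08, 0.05 to 0.11). Of 18 related kinases 15 were measured, 1 passed 1.5-fold higher and 0 lower, with a median of 0.08. Dapk1, a calmodulin-regulated death-associated kinase, stood at 601 and 752 CPM (0.32, 0.27 to 0.38), and the pseudokinase Camkv at 276 and 239 CPM (-0.21, -0.30 to -0.11). Dapk2 passed on 22 and 34 UMIs (1.37, 0.55 to 2.21). Among 17 nuclear targets of the cascade, 15 were measured, 1 passed higher and 1 lower, with a median of -0.02. Mef2c, a transcription factor released by CaMK phosphorylation of class II histone deacetylases, stood at 24.2 and 15.8 CPM (-0.62, -0.98 to -0.26), and the CREB coactivator Crtc2 at 7.81 and 12.0 CPM (0.62, 0.13 to 1.11). Mef2d went the other way from Mef2c, 94.3 and 113 CPM (0.26, 0.12 to 0.41). All 20 synaptic partners of CaMKII were measured, 0 passed higher and 1 lower, with a median of 0.04. The scaffold gene Homer1, which is itself activity-dependent, stood at 410.4 and 267 CPM (-0.62, -0.71 to -0.54), the L-type channel gene Cacna1c at 307 and 410.2 CPM (0.42, 0.34 to 0.50), and the NMDA receptor subunit Grin2b, which anchors CaMKII, at 2818 and 3278 CPM (0.22, 0.19 to 0.25). All-gene shares past 1.5-fold in these nuclei were the 8.81% and 5.09% given above, and no list was tested against them.

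In interneurons, Mef2c was far higher than in pyramidal nuclei, at 655 CPM in control and 505 CPM in epilepsy (-0.37, -0.64 to -0.11), and Homer1 stood at 108 and 57.5 CPM (-0.91, -1.72 to -0.16). Of 12 measured nuclear targets in interneurons, 0 passed 1.5-fold higher and 2 lower, with a median of -0.10, against -0.00 over all genes, of which 5.5% were higher and 7.46% lower. These were Mef2a at 124 and 75.7 CPM (-0.72, -1.43 to -0.06) and Hdac5, a histone deacetylase that CaMK phosphorylation sends out of the nucleus, at 80.4 and 42.4 CPM (-0.92, -1.89 to -0.05). Synaptic partners gave 17 measured, 0 higher and 2 lower, with a median of 0.11. The other gene beside Homer1 was Abi1 at -0.81 (-1.65 to -0.04), named after its value was seen.

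For each kinase gene, the genes with the most similar levels were sought over 10 points (5 classes in both libraries), by Pearson correlation of log2(CPM + 10). The points share libraries and depth, and 6 of them are pyramidal, so the values are given as a description. Camk2a went with Kalrn, Lingo1 and Cacnb2 (r from 0.99 to 1.00), Camk2b with Bcl11a, Cacng8 and Sez6l (0.99 to 1.00), and Camk1d with Syt7, Ryr2 and Asphd2 (0.99 to 1.00). Camk1 went with Erbb4 (0.99), which is on the interneuron marker list, Synpr and Npas3, and Camk2d with Alk (0.99), Sema5a and Gria4. Camkk1 went with Rasgef1b (0.99), Wwc1 and Osbp2, and Camkk2 with Ubtd2 (0.97), Nsun2 and Cap2. Camk4 went with Mmp16 (0.98), Tmem131l and Mtus2, Camk1g with Rab3c (0.98), Mamld1 and Klhl32, and Camk2g, with the lowest values of the family, with Alcam (0.96), B3glct (0.94) and Nalcn (0.93).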

How the data were processed

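Nuclei of dorsal CA1 (4 consecutive slices of 300 µm, sorted nuclei, 15000 loaded) were sequenced as 1 droplet library per condition. The deposited values are UMI counts per gene and nucleus, raw and not normalised, per the file headers. Cell Ranger 2.2.0, FastQC and the mouse builds GRCm38 and mm10 are named in the submitters' processing notes. The sources used here do not say how barcodes were chosen or whether introns were counted.

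No nucleus failed the filter of 200 detected genes and 5% mitochondrial UMIs. Scrublet at an expected rate of 0.06 marked 4 nuclei in each library by its own threshold, so the top 3% of doublet scores was removed (110 control and 93 epilepsy nuclei). Clusters came from 2000 variable genes without the 10 kinase genes, scaled within library, with 30 principal components, 20 neighbours and Leiden resolution 1.0 (Python 3.11.15, scanpy 1.11.5, leidenalg 0.10.2). A cluster was named from at least 3 detected markers. A pyramidal cluster was named deep with Ndst4 at least 2-fold above the other pyramidal nuclei and Calb1 below them. It was named superficial with Ndst4 at least 2-fold below them and Calb1 above. Either name also needed a further marker of that sublayer at least 1.25-fold above the other pyramidal nuclei. The threshold that set mixed clusters aside (pyramidal markers at 0.5 of the pyramidal level), and the demand that classes outside CA1 have a marker of their own among the top 10 genes, were set after the clusters had been seen.

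UMIs were summed per class and library and given per 1000000. Levels carry Poisson intervals, shares exact Clopper-Pearson intervals, log2 ratios exact conditional binomial intervals (scipy 1.17.1) and the difference between sublayers a Wald interval. The confidence level is 95%, and a count of 0 allows up to 3 counts. A gene was measured in a comparison with at least 50 UMIs over its 2 sides and counted when past 1.5-fold. There is no test between conditions, since each had 1 library. Alternatives included TMM factors (edgeR 4.0.16, R 4.3.3), thinning to 1000 UMIs, other resolutions, other minimum counts and a lower fold threshold. The scripts were tested on simulated data. Named genes were all 10 members, the 3 most similar genes of each member, and pathway genes chosen by rule. The rule took up to 3 genes per pathway list and class whose interval excluded 0 and lay farthest from it. Calm2 and Calm3 were given for pyramidal nuclei outside this rule, since their intervals there included 0. Members and lists were chosen with earlier results of these data known. Some genes of the lists are not reported here.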

Additional observations from a re-analysis of the deposited data

Results flagged for a closer look

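In 2 of the kinase genes measured in both sublayers, the ratio of epilepsy over control had opposite signs in deep and superficial nuclei. For Camkk2 it was 0.65 in deep and -0.20 in superficial nuclei, a difference (superficial minus deep) of -0.85 on the log2 scale. For Camk4 it was -0.41 in deep and 0.01 in superficial nuclei, a difference of 0.42. The superficial value of Camk4 lies next to 0 and became -0.08 under TMM scaling, so for Camk4 the signs were the same under that scaling. With 1 library per condition, neither difference was tested.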

How the results depend on the processing

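Of 529 epilepsy ratios recomputed under an alternative, 513 stayed within their counting error and 16 did not. The same held for 71 of 82 levels, 29 of 30 sublayer differences and 34 of 45 sublayer ratios. Of 105 recomputed counts of genes past the threshold, 82 were within 1.5 times the value given. The count in all CA1 pyramidal nuclei, 0, became 1 with TMM factors, 1 when thinned to 1000 UMIs and 2 at the lower threshold (a log2 ratio of 0.32), where the deep count of 1 became 3. The superficial count of 0 became 1 at Leiden resolution 2.0, with TMM factors, when thinned, and at the lower threshold. In the other pyramidal nuclei the count of 1 became 2 at resolution 0.5 and at a minimum of 20 UMIs, and 0 at resolution 2.0, when thinned and at a minimum of 200 UMIs. The interneuron count of 1 became 0 when thinned and at 200 UMIs. The oligodendrocyte count of 0 became 1 with the kinase genes among the clustering genes, with doublets kept, at 20 UMIs, at the lower threshold and with the mixed cluster counted in. For superficial over deep in the epilepsy library, the count of 2 became 1 with the split at the median marker score. The count of 1 gene differing between sublayers became 2 at sublayer resolutions 0.5 and 2.0. Fewer UMIs or another minimum change which genes are measured, and for the rest the cause was not tested.

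The Camkk2 ratio ran from 0.60 to 0.91 in deep and from -0.30 to -0.14 in superficial nuclei over 13 alternatives each, and its sublayer difference from -1.08 to -0.62 over 5. Camk1g ran from -0.50 to 0.12 in all pyramidal nuclei and from -0.70 to 0.35 in the other pyramidal nuclei, and so took both signs. The Camk4 difference ran from 0.13 to 0.60. Camk2g ran from -0.67 to -0.52 in all pyramidal nuclei, from -0.94 to -0.42 in superficial nuclei, from -1.07 to -0.41 in the other pyramidal nuclei and from -1.13 to -0.77 in interneurons. Oligodendrocytes gave no value at Leiden resolution 0.5, where no cluster took their name, or when thinned, with too few nuclei left. The variants with mixed, low-UMI, activity and shared-barcode nuclei and the sublayer resolutions were chosen after seeing the data. No paired analysis was possible because each condition has 1 library. Sums under 50 UMIs, which hold most glial values, were too shallow for a ratio.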

Other observations

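Classes too small to compare gave further values for the family. CA2/CA3-like nuclei (18 control, 51 epilepsy) had Camk4 at 615 CPM (452 to 818, 47 UMIs) and 639.5 CPM (527 to 769, 113 UMIs), against 185 and 168 CPM in CA1 pyramidal nuclei. Camk1d stood there at 1414 and 1460.1 CPM, against 728 and 858 CPM. Camk2g had 0 UMIs in both libraries, which allows up to 39.3 CPM in control and 17.0 CPM in epilepsy. Of their 7 markers Cpne4 led at 1191 and 1488 CPM, and Amigo2 was at 0 in control.

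Dentate granule-like nuclei numbered 153 in control and 14 in epilepsy, so only the control values have depth. Camk4 stood at 59.8 CPM (35.4 to 94.4), Camk2g at 143 CPM (103 to 192), Camk2b at 660.6 CPM (572 to 759) and Camkk1 at 76.3 CPM (48.4 to 115). Camk2g made up 6.25% of CaMKII UMIs there and Camk2b 28.9%, against 1.92% and 21.4% in control CA1 pyramidal nuclei.

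Astrocyte-like nuclei (27 and 31) had Camk2g at 441 CPM (252 to 716, 16 UMIs) and 361 CPM (173 to 664, 10 UMIs), and Camk2d at 165 CPM (6 UMIs) and 325 CPM (9 UMIs). In CA1 pyramidal nuclei Camk2g stood at 42.8 and 29.1 CPM. The pooled pyramidal genes reached 34.0% and 23.9% of their pyramidal level in the astrocyte-like nuclei, from 11 and 6 UMIs, and Camk2a stood at 744 and 144 CPM. Oligodendrocyte precursor-like nuclei (24 and 38) held 2 and 4 UMIs each of Camk1 and Camk2d, and their marker Olig1 was at 0 in both libraries.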
